A study of Mus musculus with 7 samples.

Results

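Meiotic recombination genes were examined in fetal mouse testis with and without functional *Glis3*. The members were 9 genes of meiotic double-strand break formation and repair, *Dmc1*, *Spo11*, *Mnd1*, *Psmc3ip*, *Hsf2bp*, *Msh4*, *Msh5*, *Mei1* and *Prdm9*, taken by symbol from the 24739 genes of the gene table. All 9 had a value above 0 in all 7 libraries, and 6 of the 9 reached a mean of 0.5 FPKM (a read level scaled both to library size and to transcript length), the level asked for in the test across genes. No member passed that test in the 7 libraries. In 1 library labelled wild-type, replicate 3, *Glis3* and germ cell genes were near mutant level. With it left out, mutant means were 0.489 times the wild-type mean for *Hsf2bp*, which then passed (adjusted p = 0.0245 from limma, where 5.15% of all genes passed). They were 0.499 times for *Spo11*, which did not pass (0.0508), whereas *Psmc3ip* stayed at 1.01 times. That library was singled out by values of the same kind as those tested, so the pass is not independent support. Leaving out wild-type replicate 1 instead gave *Hsf2bp* a log2 fold change of -0.39 (adjusted p = 0.439 from limma).

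The libraries came from whole testes of C57BL/6 embryos at E14.5, 3 labelled wild-type (n = 3) and 4 homozygous mutant, *Glis3* zf5/zf5 (n = 4), with 1 pair of testes from 1 embryo in each library. The *Glis3* zf5 allele carries a deletion that removes an exon and parts of the introns on both sides of it. Total RNA was depleted of ribosomal RNA and primed at random without selection of poly-A tails, so unspliced RNA was sequenced beside mRNA. The labels call the samples biological replicas.

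In meiosis, germ cells cut their own DNA on purpose and repair the breaks from the homologous chromosome, which makes crossovers and holds the homologs together until they part. SPO11 makes the breaks, with MEI1 among its helpers, at places marked by the histone methyltransferase PRDM9. The cut ends are coated by the recombinase DMC1, which HSF2BP helps to load through BRCA2 and which MND1 and PSMC3IP (HOP2), working as a pair, stimulate. MSH4 and MSH5 form a clamp that stabilizes the joined molecules on the way to crossovers. In the mouse, ovarian germ cells start meiosis before birth, whereas those of the fetal testis stop dividing as gonocytes and start meiosis only after birth.

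The library labelled wild-type replicate 3 stood apart from the other wild-type libraries, and member results are therefore given with and without it. It was singled out by *Glis3* and germ cell gene levels, so leaving it out widens the difference of genes that go with these. *Glis3*, the mutated gene, was at 7.63, 6.89 and 2.91 FPKM in wild-type replicates 1 to 3 and between 2.66 and 3.86 FPKM in the mutants. The summed FPKM of 16 germ cell genes, which included *Dazl*, *Ddx4* and *Pou5f1*, was 1846, 1341 and 920 in the wild-type libraries and 748 to 868 in the mutants. All 16 were lower in the mutants, with a median log2 fold change of -0.85 against 0.0084 over the 13988 genes tested, though none of the 16 passed the threshold. In the same library other genes lay on the wild-type side, among them *Stra8* at 0.0911 FPKM (1.40 to 2.06 in mutants), *Rec8* at 2.53 FPKM (4.71 to 5.58) and *Stag3* at 14.9 FPKM (7.39 to 12.2). The study picked *Stra8* and *Rec8* from these libraries and also reported both as higher by qPCR. *Stag3* was named here for groups that do not overlap. The side of *Stag3* was thus set by the choice, and that of *Stra8* and *Rec8* in part. These values alone cannot tell where this library belongs. In bulk RNA, fewer germ cells and less RNA per germ cell cannot be told apart. The summed FPKM of 9 fetal Leydig cell genes was 1766 to 2883 in wild type and 2687 to 3346 in mutants, that of 10 Sertoli cell genes 1031 to 1266 and 1247 to 1428, and that of 7 skeletal muscle genes 2.19 to 28.2 and 1.62 to 53.5. The part of these cells in the results below was not tested.

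The members differed widely in level. FPKM is a level per transcript length, so it can be compared between genes. *Psmc3ip* had the highest mean over the 7 libraries, at 20.7 FPKM, followed by *Mnd1* at 11.99, *Hsf2bp* at 7.15, *Dmc1* at 3.45, *Spo11* at 2.70, *Msh5* at 0.968, *Msh4* at 0.428, *Prdm9* at 0.363 and *Mei1* at 0.0548 FPKM. *Mnd1* lay above *Hsf2bp*, *Hsf2bp* above *Dmc1*, *Spo11* above *Msh5* and *Prdm9* above *Mei1* within every library. The order was not the same in every library for *Psmc3ip* over *Mnd1* (6 of 7 libraries), *Dmc1* over *Spo11* (5 of 7), *Msh5* over *Msh4* (6 of 7) and *Msh4* over *Prdm9* (2 of 7). Among the 21236 genes with a value above 0 in some library, the mean of *Psmc3ip* exceeded 79.0% of genes, that of *Dmc1* 50.9% and that of *Mei1* 18.6%. *Mei1*, *Prdm9* and *Msh4* were thus listed above 0 but under the level tested.

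**Figure D1:**
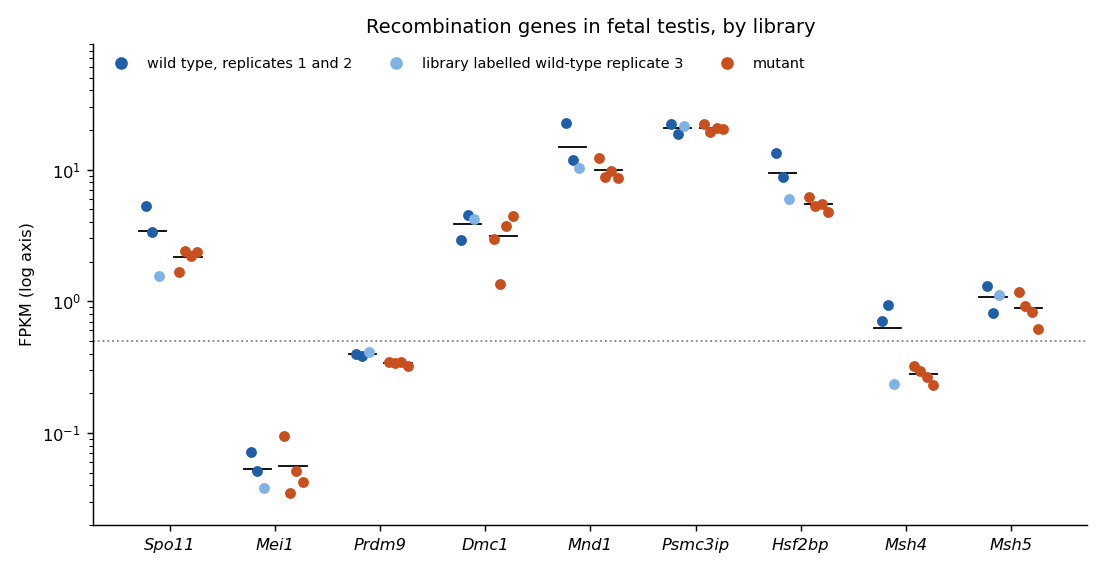
FPKM of the 9 members on a log axis, with 1 point per library, a black line at each group mean and a dotted line at 0.5 FPKM. *Psmc3ip* points lie together near 20.7 FPKM, *Hsf2bp* and *Spo11* have 2 wild-type libraries above all mutants, and *Mei1* lies below 0.1 FPKM throughout.

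Upstream sequences are shown for the 4 strand-exchange members, whose levels ran from nearly level (*Psmc3ip*) to the lowest fold change (*Hsf2bp*), and whose start sites in the RefSeq table (build GRCm38.p6) match the gene ends in the deposited table. Each is the 250 bases before the start site, read 5′ to 3′ on the gene's strand, here the minus strand. Capitals mark exact matches on either strand to GACCCCC (GLIS type, the start of a sequence that GLIS proteins bind), to TTCCCGC (E2F type), to CCCGCCC (the box rich in G and C, or GC box) or to CACGTG (the E-box). The E2F-type and GC box letters can overlap each other.
Dmc1 (chr15:79605110-79605359): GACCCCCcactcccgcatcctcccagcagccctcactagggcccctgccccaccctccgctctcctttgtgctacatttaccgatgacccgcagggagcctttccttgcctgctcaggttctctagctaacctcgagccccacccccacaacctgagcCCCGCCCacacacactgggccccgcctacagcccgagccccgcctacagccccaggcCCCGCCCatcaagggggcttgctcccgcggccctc
Mnd1 (chr3:84155787-84156036): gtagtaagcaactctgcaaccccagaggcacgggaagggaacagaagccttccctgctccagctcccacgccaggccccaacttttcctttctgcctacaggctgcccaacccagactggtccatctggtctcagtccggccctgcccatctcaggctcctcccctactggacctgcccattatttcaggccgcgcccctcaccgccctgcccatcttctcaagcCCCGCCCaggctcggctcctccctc
Psmc3ip (chr11:101095436-101095685): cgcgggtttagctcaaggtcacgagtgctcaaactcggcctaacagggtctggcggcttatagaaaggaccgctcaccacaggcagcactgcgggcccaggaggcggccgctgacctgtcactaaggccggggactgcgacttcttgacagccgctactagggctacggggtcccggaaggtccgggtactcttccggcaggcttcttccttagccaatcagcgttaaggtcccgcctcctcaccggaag
Hsf2bp (chr17:32034509-32034758): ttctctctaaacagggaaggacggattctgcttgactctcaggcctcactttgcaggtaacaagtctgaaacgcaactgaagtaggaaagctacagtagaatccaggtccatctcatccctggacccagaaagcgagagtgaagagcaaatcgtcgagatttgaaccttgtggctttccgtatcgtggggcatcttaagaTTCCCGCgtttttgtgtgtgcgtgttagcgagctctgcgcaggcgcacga

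The *Dmc1* stretch holds the GLIS-type letters at its first base and GC boxes at 92 and 35 bases before the start site. *Mnd1* has a GC box 25 bases before the start site, *Hsf2bp* the E2F-type letters 50 bases before it, and *Psmc3ip* none of these letters. Over 32817 RefSeq promoters of the same length, the GLIS-type letters were found in 3.30%, the E2F-type letters in 3.82%, the GC box in 23.4% and the E-box in 6.02%. *Dmc1* and *Mnd1* are richer in G and C (68.8% and 63.6%) than the median promoter (52.4%), as is *Psmc3ip* (62.4%), and *Hsf2bp* is close to it (50.4%). These matches describe letters in a window and were not tested for binding. In the GENCODE annotation *Hsf2bp* extends upstream to base 32036349, so the stretch shown lies within the gene there. RefSeq promoters were found for 8 of the 9 members, all but *Spo11*.

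*Spo11*, the break-making enzyme (chr2:172979842-172993576), was at 5.31, 3.35 and 1.57 FPKM in wild-type replicates 1 to 3 and at 1.68, 2.39, 2.21 and 2.36 FPKM in mutant replicates 1 to 4. Wild-type replicates 1 and 2 lay above every mutant and the library labelled wild-type replicate 3 below every mutant. The means were 3.41 ± 1.87 (SD, n = 3) and 2.16 ± 0.330 FPKM (SD, n = 4). The log2 fold change of mutant over wild type was -0.44 (95% half-width 0.69, adjusted p = 0.487 from limma), and the groups overlapped. Without the library labelled wild-type replicate 3 it was -0.84 (half-width 0.45, adjusted p = 0.0508), and without wild-type replicate 1 it was -0.093. The value thus turned on which wild-type library was left out.

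*Mei1*, a gene needed for break formation (chr15:82070117-82126814), was at 0.0711, 0.0513 and 0.0383 FPKM in wild type and at 0.0944, 0.0351, 0.0515 and 0.0423 FPKM in mutants. These values were the lowest of the 9 members, with overlap between the groups (exact permutation test, p = 0.886, and 0.933 with the library labelled wild-type replicate 3 left out). *Prdm9* (chr17:15543079-15563323), which places the breaks, was at 0.395, 0.383 and 0.410 FPKM in wild type and at 0.343, 0.340, 0.349 and 0.321 FPKM in mutants. Every mutant lay below every wild-type library, the library labelled wild-type replicate 3 included, and *Prdm9* was the single member whose groups did not overlap. Of the 21236 genes above 0 in some library, 5.70% had all mutants below all wild-type libraries (1210 genes), and as many had all mutants above (1210 genes). The difference was -0.096 on the log2(FPKM + 0.5) scale (p = 0.0286, the smallest that the exact permutation test over 35 splits can give). Without the library labelled wild-type replicate 3 it was -0.085 (p = 0.0667, again the smallest that an exact permutation test allows there). In the fit without a filter on low values its adjusted p was 0.478 (limma). With means of 0.396 ± 0.0135 FPKM (SD, n = 3) and 0.338 ± 0.0120 FPKM (SD, n = 4), *Prdm9* was 0.854 times as high in mutants.

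*Dmc1*, the meiosis-specific recombinase (chr15:79561498-79605109), was at 2.91, 4.54 and 4.21 FPKM in wild type and at 2.99, 1.36, 3.72 and 4.42 FPKM in mutants. The groups overlapped over most of their range, and mutant replicate 2 was the lowest of the 7 libraries. The log2 fold change was -0.34 (half-width 0.71, adjusted p = 0.602 from limma), -0.28 without the library labelled wild-type replicate 3 and -0.053 without mutant replicate 2. *Dmc1* is among genes that the study picked as unchanged from these libraries, so its level is not independent evidence on that point.

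*Mnd1*, a DMC1 helper (chr3:84087934-84155786), was at 22.5, 11.8 and 10.3 FPKM in wild type and at 12.2, 8.80, 9.74 and 8.66 FPKM in mutants. Wild-type replicate 1 alone stood above all mutants, and mutant replicate 1 lay just above wild-type replicate 2. The log2 fold change was -0.50 (half-width 0.56, adjusted p = 0.341 from limma), with -0.71 (adjusted p = 0.131) when the library labelled wild-type replicate 3 was left out and -0.17 when wild-type replicate 1 was. *Mnd1* is among genes the study picked as lower from these same libraries. A pseudogene, *Mnd1-ps*, was listed at 1.35 to 2.57 FPKM in wild type and 1.06 to 1.31 FPKM in mutants, and some reads may be shared between the copies.

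*Psmc3ip*, the partner of *Mnd1* (chr11:101092141-101095435), was at 22.3, 18.6 and 21.4 FPKM in wild type and at 22.1, 19.3, 20.6 and 20.5 FPKM in mutants. All 7 libraries lay within a narrow range. Its log2 fold change was -0.0082 (half-width 0.18, adjusted p = 0.969 from limma), and its sign turned in 6 of the alternatives, centring on the median among them. The gene overlaps *Mlx* on the opposite strand, and reads counted without strand cannot be assigned between them where they overlap. *Mlx* was at 16.5 to 18.0 FPKM in wild type and 15.5 to 18.9 FPKM in mutants.

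*Hsf2bp*, a BRCA2 partner (chr17:31944769-32034508), was at 13.5, 8.84 and 5.97 FPKM in wild type and at 6.21, 5.28, 5.50 and 4.80 FPKM in mutants. Wild-type replicates 1 and 2 lay above every mutant, and the library labelled wild-type replicate 3 lay just under the highest mutant. Means were 9.42 ± 3.78 (SD, n = 3) and 5.45 ± 0.588 FPKM (SD, n = 4). The log2 fold change was -0.67 (half-width 0.52), with an unadjusted p of 0.0164 and an adjusted p of 0.211 (limma). Without the library labelled wild-type replicate 3, it fell by 0.95 on the log2 scale (half-width 0.39, adjusted p = 0.0245 from limma), from a mean of 11.1 to 5.45 FPKM. Without wild-type replicate 1 the log2 fold change was -0.39 (adjusted p = 0.439 from limma), so the size and the call depended on which wild-type library was left out.

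*Msh4* (chr3:153857141-153906138), a subunit of the crossover clamp, was at 0.703, 0.942 and 0.236 FPKM in wild type and at 0.324, 0.294, 0.267 and 0.232 FPKM in mutants. Wild-type replicates 1 and 2 exceeded every mutant, and the library labelled wild-type replicate 3 was at mutant level. The difference on the log2(FPKM + 0.5) scale was -0.48 (exact permutation test, p = 0.114), and -0.76 (p = 0.0667, the smallest possible) without that library. *Msh5* (chr17:35028605-35046745), the other subunit, was at 1.31, 0.810 and 1.13 FPKM in wild type and at 1.17, 0.914, 0.830 and 0.616 FPKM in mutants. The *Msh5* groups overlapped over most of their range, with a log2 fold change of -0.20 (half-width 0.40, adjusted p = 0.589 from limma) and -0.17 (adjusted p = 0.667) with the library labelled wild-type replicate 3 left out.

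Across the table, 0 of the 6 members tested passed an adjusted p of 0.05 in limma, where 0.00715% of all genes tested did (1 of 13988). *Hsf2bp* was the 1 member of the 6 under an unadjusted p of 0.05, and 8.79% of all genes tested were under it and lower in the mutants. All 6 fold changes were below 0, that of *Psmc3ip* only at -0.0082 and with a sign that turned in alternatives. Of all 13988 genes tested, 6694 were lower. The members' median was -0.39, against 0.0084 over all genes tested. With the library labelled wild-type replicate 3 left out, 1 of the 6 members passed, against 5.15% of all genes (720 of 13988; 3.99% called as lower), and the members' median was -0.50. Of the 6 members, *Spo11* and *Hsf2bp* had groups that did not overlap in that set of 6 libraries. So did 17.1% of all genes tested with mutants lower (2389 of 13988), and 2178 genes with mutants higher. The members were not tested as a set.

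**Figure D2:**
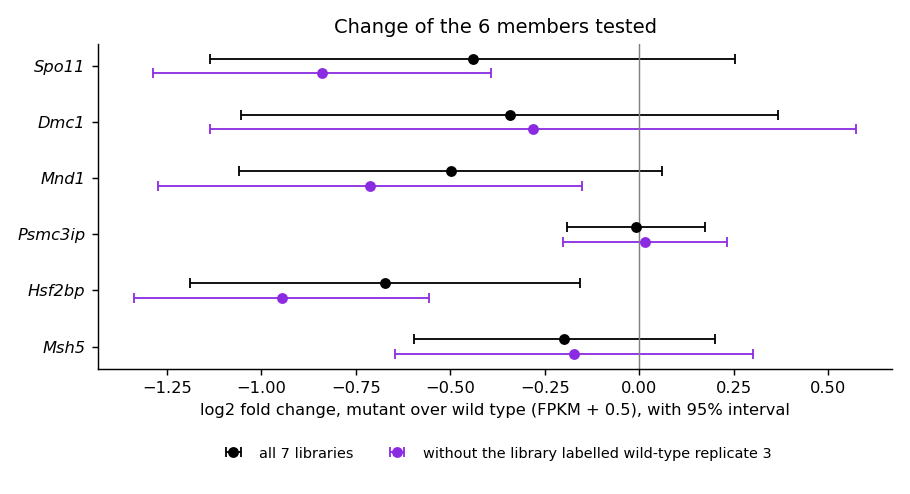
Log2 fold change of mutant over wild type for the 6 members tested, on log2(FPKM + 0.5), with bars for the 95% interval of the limma fit, from all 7 libraries (black) and without the library labelled wild-type replicate 3 (purple). *Hsf2bp* lies at -0.67 and -0.95, *Spo11* at -0.44 and -0.84, and *Psmc3ip* at 0 within its interval in both.

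Partner genes kept different proportions in different libraries. The *Mnd1* to *Psmc3ip* ratio of FPKM was 1.01, 0.633 and 0.480 in wild type and 0.550, 0.455, 0.472 and 0.423 in mutants, so wild-type replicates 1 and 2 had more *Mnd1* per *Psmc3ip* than any mutant. The *Msh4* to *Msh5* ratio was 0.535, 1.16 and 0.210 in wild type and 0.278 to 0.377 in mutants. Ratios were not tested.

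A different readout of the same genes came from reads on LINE, SINE and LTR repeat elements within the gene span, mostly in introns. They were counted from uniquely mapped reads and given as CPM (counts scaled to the library's total of such reads after TMM adjustment of that total). Of the 12267 genes that averaged 10 or more such reads per library, 1 passed the edgeR quasi-likelihood test (0.00815%). Among the 6 members that could be tested (*Dmc1*, *Spo11*, *Mnd1*, *Hsf2bp*, *Msh4* and *Msh5*) 0 passed and 1 was under an unadjusted p of 0.05, as were 1546 of the 12267 genes. DESeq2 called 0 of the 6, against 56 of all genes, with 2 of the 6 under an unadjusted p of 0.05, as were 8.18% of all genes. In the 6 libraries left without wild-type replicate 3, 0 of the 6 passed in edgeR, where 1.12% of all genes did, and 3 were under an unadjusted p of 0.05, as were 13.9% of all genes. Libraries held 3454317 to 4670830 reads on repeat elements.

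*Dmc1* had 24.1, 44.5 and 34.4 CPM of repeat reads in wild type and 28.6, 13.2, 34.5 and 44.9 in mutants. Of the 108 *Dmc1* loci used, 56 had reads and 2 overlapped an exon. The libraries took nearly the same places as in FPKM, with mutant replicate 2 again lowest (log2 fold change -0.16, and -0.15 without the library labelled wild-type replicate 3). *Spo11* had 57.02, 26.8 and 18.5 CPM in wild type and 15.5, 23.8, 27.8 and 23.3 in mutants, with wild-type replicate 1 far above the rest (log2 fold change -0.61, adjusted p = 0.448 from edgeR, 0.0011 without wild-type replicate 1, and -0.92 with adjusted p = 0.139 with the library labelled wild-type replicate 3 left out). A single B3 element gave 34.5% of the *Spo11* reads. *Hsf2bp* had 29.9, 21.4 and 16.8 CPM in wild type and 14.1, 19.6, 16.6 and 19.96 in mutants (-0.38, adjusted p = 0.5003 from edgeR). That fold change was -0.12 without wild-type replicate 1 and -0.56 (adjusted p = 0.259) with the library labelled wild-type replicate 3 left out. As in FPKM, wild-type replicates 1 and 2 were the highest libraries for *Hsf2bp*.

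*Msh4* had 26.4, 21.4 and 20.3 CPM of repeat reads in wild type and 15.1, 18.9, 16.2 and 16.3 in mutants. Here every mutant lay below every wild-type library, the library labelled wild-type replicate 3 included, which was not so in FPKM. The share of all genes separated in this way in repeat reads was not counted, so the separation is a description. Of the 87 *Msh4* loci used, 8 overlapped an exon, and a single B3 element gave 24.9% of the reads. The log2 fold change was -0.45, with an unadjusted p of 0.0184 and an adjusted p of 0.301 (edgeR), or -0.53 and 0.223 without the library labelled wild-type replicate 3, and 5.95% of all genes tested were under an unadjusted p of 0.05 and lower in mutants. *Mnd1*, with 25.3, 23.4 and 15.6 CPM in wild type and 18.5 to 24.3 in mutants, was nearly level (0.028, adjusted p = 0.974 from edgeR, and -0.16 without the library labelled wild-type replicate 3). *Msh5* was at 7.65 to 9.51 in wild type and 8.32 to 11.98 in mutants (0.17, and 0.10 without that library). *Psmc3ip*, *Mei1* and *Prdm9* had too few repeat reads to be tested, with 1 to 13, 2 to 10 and 3 to 14 reads per library. For *Prdm9* these were 9, 3 and 14 reads in wild type and 10, 9, 6 and 8 in mutants, which overlap, unlike its FPKM.

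**Figure D3:**
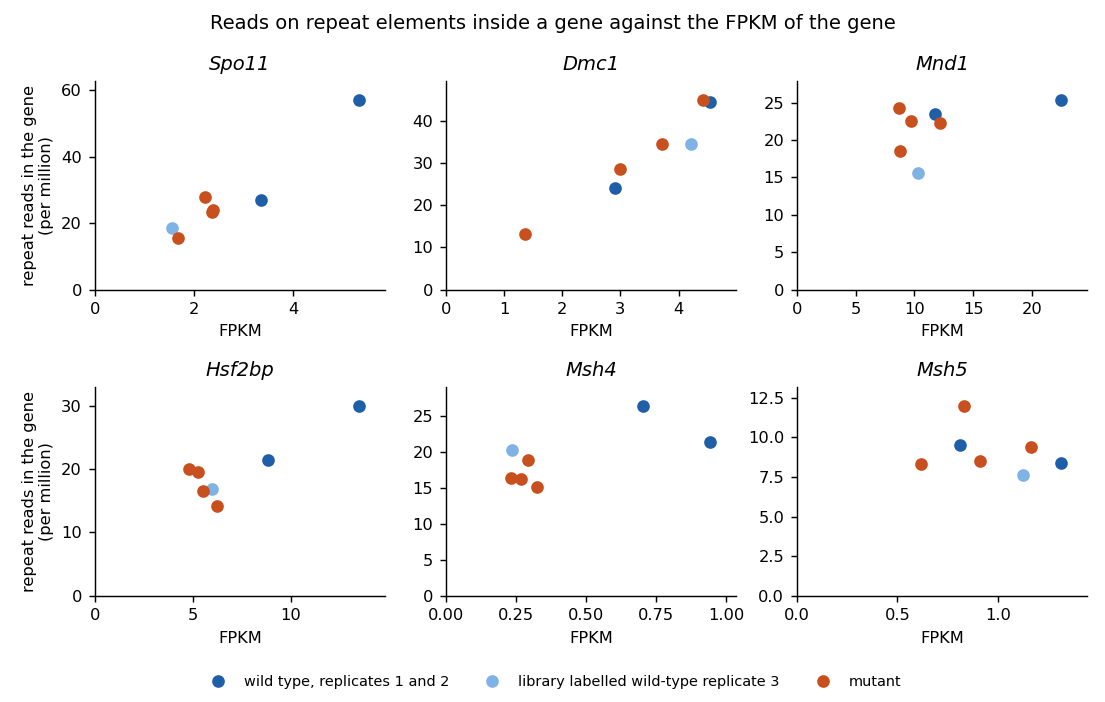
CPM of repeat reads inside the gene (vertical axis) against FPKM (horizontal axis) for 6 members, with 1 point per library. Mutant replicate 2 is lowest on both axes for *Dmc1*, wild-type replicate 1 is highest on both for *Spo11*, *Hsf2bp* and *Mnd1*, and all mutants lie below all wild-type libraries on the vertical axis for *Msh4*.

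Each member was also set against the 16 germ cell genes, as its log2(FPKM + 0.5) minus their mean in the same library. On this scale *Hsf2bp* was at -1.32, -1.31 and -1.47 in wild type and at -1.05, -1.14, -1.34 and -1.32 in mutants, a difference of 0.15 (exact permutation test, p = 0.286), which became 0.10 (p = 0.533) with the library labelled wild-type replicate 3 left out. The *Hsf2bp* groups overlapped on this scale, and no value stood far from the others. *Psmc3ip* was at -0.61, -0.27 and 0.29 in wild type and at 0.71, 0.64, 0.48 and 0.66 in mutants, so all mutants lay above all wild-type libraries. The mean of the germ cell genes differed by -0.83 itself, whereas *Psmc3ip* alone had a log2 fold change of -0.0082. Its relative value and the p below thus mirror the germ cell genes and do not describe a change of *Psmc3ip*. The *Psmc3ip* difference was 0.82 (p = 0.0286, the smallest the exact permutation test can give) with all libraries and 1.06 (p = 0.0667, again the smallest) without the library labelled wild-type replicate 3.

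*Mnd1* was at -0.60, -0.91 and -0.74 relative to the germ cell genes in wild type and at -0.13, -0.46, -0.56 and -0.53 in mutants. Its groups did not overlap, and the difference was 0.33 (exact permutation test, p = 0.0571), and 0.33 (p = 0.133) with the library labelled wild-type replicate 3 left out. *Spo11* differed by 0.39 (p = 0.171), *Dmc1* by 0.48 (p = 0.400) and *Msh5* by 0.63 (p = 0.114) in the exact permutation test, with groups that overlapped. Without the library labelled wild-type replicate 3 these were 0.21, 0.77 and 0.87. *Mei1* (0.83) and *Prdm9* (0.73) had FPKM under the 0.5 added before the logarithm, and their relative values mainly mirror the germ cell genes, as that of *Psmc3ip* does. *Msh4* differed by 0.35 (exact permutation test, p = 0.257), or by 0.095 with 0.1 added and 0.45 with 1 added in place of 0.5. These were 9 comparisons with 35 splits each, and no p of 0.0286 in them would pass an adjustment over 9.

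**Figure D4:**
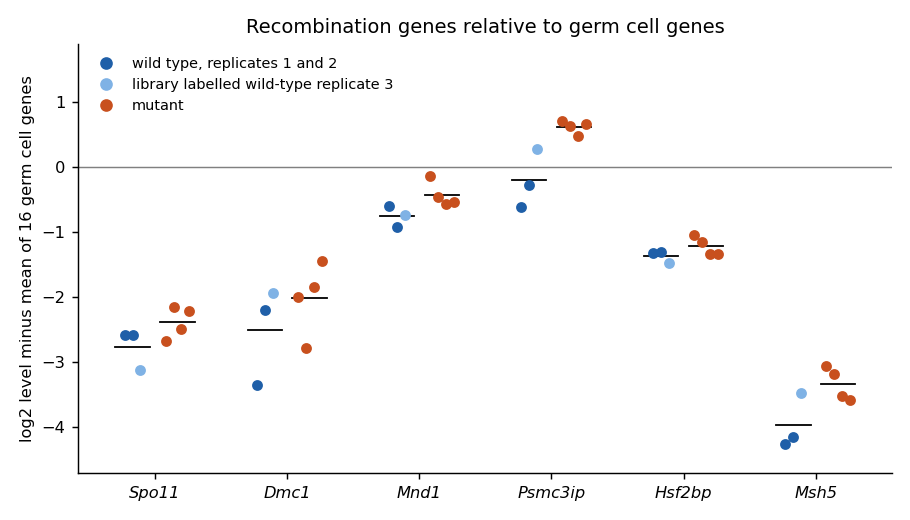
Log2(FPKM + 0.5) of each of the 6 members that reached 0.5 FPKM minus the mean of 16 germ cell genes in the same library, with 1 point per library and a line at the group mean. Mutants lie above all wild-type libraries for *Psmc3ip* and *Mnd1*, and the groups overlap for *Hsf2bp*, *Spo11*, *Dmc1* and *Msh5*.

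The other genes of the pathway were taken from lists of break formation, resection, strand invasion and crossover genes. Without the members, 45 of 52 listed genes were tested, 35 were lower and 10 higher in mutants, and 0 passed the threshold (limma). Of all 13988 genes tested, 6694 were lower and 7294 higher. The median log2 fold change was -0.12. An unadjusted p under 0.05 was seen for 15 lower and 2 higher genes, against 8.79% and 8.21% of all genes tested. In the fit with the library labelled wild-type replicate 3 left out, 5 of the 45 passed, all lower, where 3.99% of all genes passed as lower.

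Among break formation genes, *Zcwpw1*, a reader of the PRDM9 mark, was at 47.7, 42.6 and 31.7 FPKM in wild type and at 26.9, 24.0, 28.5 and 25.3 FPKM in mutants. No mutant reached the wild-type range (log2 fold change -0.61, adjusted p = 0.168 from limma, and -0.78, adjusted p = 0.0067, if the library labelled wild-type replicate 3 is left out). *Zcwpw1* was named for groups that do not overlap, so this separation was set by the choice. *Rec114*, a partner of SPO11 activity, was at 11.5, 12.4 and 6.38 FPKM in wild type and 5.70 to 7.14 FPKM in mutants, with a log2 fold change of -0.60 (adjusted p = 0.214 from limma), and it passed in the fit without that library (-0.89, adjusted p = 0.0071 from limma). *Mei4*, another partner, was at 0.550 to 1.04 FPKM in wild type and 0.299 to 0.546 FPKM in mutants. *Hormad1*, a chromosome axis protein (-0.30), and *Ccdc36* (-0.27), also needed for breaks, had overlapping groups. The study gave *Hormad1* as unchanged, from these libraries and from qPCR. Here its unadjusted p was 0.0485 and its adjusted p 0.292 (limma). The fit without the library labelled wild-type replicate 3 gave -0.49 for *Mei4*, -0.44 for *Hormad1* and -0.38 for *Ccdc36*, none past the threshold (adjusted p from 0.0692 to 0.337, limma). All 6 tested genes of this list, *Spo11* included, had lower means in mutants, with a median of -0.43.

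Among the general repair genes, differences were small. *Brca2*, which loads recombinases, was at 6.12 to 6.86 FPKM in wild type and 5.19 to 6.35 FPKM in mutants (-0.19), and its groups overlapped. *Rad50* (-0.26) and *Mre11a* (-0.17), which trim the break ends, *Rpa2* (-0.22), which coats single-stranded DNA, and *Rad54l* (-0.31), a strand-exchange motor, had all mutants below all wild-type libraries. In the same list *Rad51d*, a strand invasion factor, was at 2.62 to 2.92 FPKM in wild type and 3.23 to 3.63 FPKM in mutants (0.26), the 1 gene of the pathway with all mutants above all wild-type libraries. None of these passed the threshold, with adjusted p from 0.186 to 0.321 (limma), and from 0.0614 to 0.342 without the library labelled wild-type replicate 3. All of these but *Brca2* were named for groups that do not overlap, so their separation was set by the choice. Of the 45 pathway genes tested besides the members, 11 had all mutants below all wild-type libraries and 1 had all mutants above. Of all genes tested, 7.59% had all mutants below and 7.31% all mutants above.

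In the crossover group, *Mlh3*, part of the nuclease that cuts the joined molecules at crossovers, had overlapping groups (-0.038, and -0.100 without the library labelled wild-type replicate 3). *Slx4*, a nuclease scaffold, was at 2.51 to 3.70 FPKM in wild type and 2.15 to 2.48 FPKM in mutants (-0.36, adjusted p = 0.224 from limma, and -0.49, adjusted p = 0.0493, without that library), and *Pms2*, a mismatch repair protein, at 16.7 to 17.2 and 14.6 to 15.8 FPKM (-0.16 with and without it, adjusted p = 0.238 and 0.209 from limma). Both were named for separate groups. The lowest fold change of the list was that of *Tex11*, a meiotic crossover factor named here after its values were seen, at 22.8, 17.3 and 9.71 FPKM in wild type and 8.30 to 10.6 FPKM in mutants, with overlapping groups (-0.77, adjusted p = 0.204 from limma, and -1.10, adjusted p = 0.0082, without it).

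Genes of meiotic entry and of the chromosome axis differed in both directions beside the members. *Stra8*, which starts the meiotic programme, was at 1.08, 0.601 and 0.0911 FPKM in wild type and at 2.06, 1.96, 1.40 and 1.98 FPKM in mutants (log2 fold change 1.21, adjusted p = 0.170 from limma). *Rec8*, the meiotic cohesin, was at 2.53 to 3.51 FPKM in wild type and at 4.71 to 5.58 FPKM in mutants (log2 fold change 0.69, adjusted p = 0.112 from limma). Their groups did not overlap, with mutants higher, which no member showed. The study picked both genes as higher from these libraries and also reported qPCR for them. *Stag3* (-1.002), *Syce1* (-0.70) and *Smc1b* (-0.69), cohesin and synaptonemal complex genes, were named for separate groups, here with all mutants below all wild-type libraries. Of 15 genes tested in this list, 13 were lower, as were 6694 of all 13988 genes tested, and 0 passed the threshold (limma). Without the library labelled wild-type replicate 3, 7 passed as lower and 1 as higher, against 3.99% and 1.16% of all genes tested. The higher one was *Rec8* (0.59, adjusted p = 0.0262 from limma), and *Stra8* was at 0.83 (adjusted p = 0.0521).

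**Figure D5:**
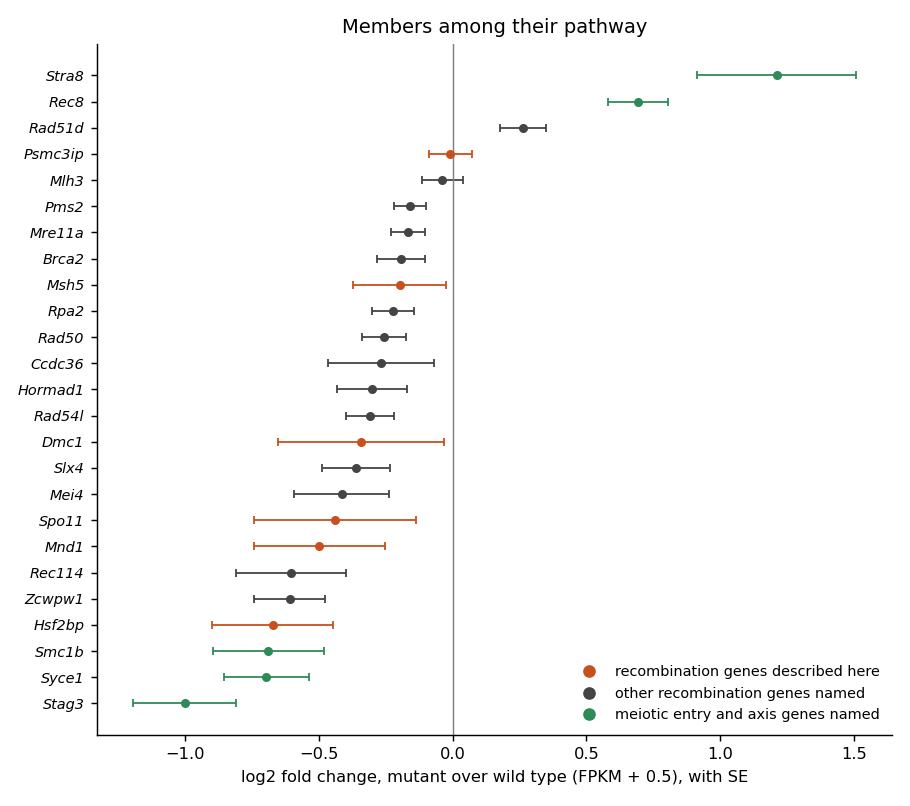
Log2 fold change of mutant over wild type on log2(FPKM + 0.5), with SE bars, for the 6 members tested (orange), 14 other recombination genes (black) and 5 meiotic entry and axis genes (green). *Stra8*, *Rec8* and *Rad51d* lie to the right of 0, *Psmc3ip* lies at 0 within its SE, and *Stag3* lies farthest to the left at -1.002.

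Genes with the pattern most like a member were those with the smallest root mean square difference of centred log2(FPKM + 0.5) over the 7 libraries, among genes that varied at least 0.8 times as much. For *Dmc1* these were *Osgep* (0.096), *Psmb5* (0.10) and *6030471H07Rik* (0.16), out of 888 genes. *Osgep* was at 28.3, 39.5 and 38.7 FPKM in wild type and at 26.2, 14.7, 34.2 and 33.3 FPKM in mutants, with the same low mutant replicate 2. *Spo11* was most like *Abcc4*, *Th* and *Ccdc172*, *Mnd1* like *Gm6792*, *Acaa1b* and *Itgb3*, and *Hsf2bp* like *Gm2381*, *Pik3cd* and *Six4*, with differences of 0.074 to 0.16. *Pik3cd* was at 13.2, 9.77 and 6.80 FPKM in wild type and 4.996 to 6.15 FPKM in mutants. *Psmc3ip*, which varied little, was most like *Cd3eap*, *Saal1* and *Slc25a4*, and *Msh5* like *Exog*, *Chrna7* and *Rasip1*. Likeness over 7 libraries is a description.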

How the data were processed

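RNA-Seq data of 7 whole-testis libraries were used, 3 WT and 4 Mutant by their labels. The authors aligned reads to mm10 with TopHat 2.0.12 and deposited FPKM values per RefSeq gene, made with Cuffquant and Cuffnorm without strand. The authors also deposited unnormalized counts of uniquely mapped reads per LINE, SINE and LTR element, made with HTSeq. Fragments behind an FPKM value are unknown. Steps between low values gave depths of 0.776 to 1 relative to WT replicate 1.

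Genes averaging 0.5 FPKM or more were tested on log2(FPKM + 0.5), which understates changes of low genes, with limma 3.58.1 in R 4.3.3 (two-sided, with a trend, Benjamini-Hochberg threshold 0.05). Single values were compared by two-sided exact permutation tests over 35 splits. Repeat loci within the span of 1 gene (bedtools 2.31.1) were summed per gene and tested with edgeR 4.0.16 (TMM, a mean of at least 10 reads), with DESeq2 1.42.0 as an alternative. Other steps used Python 3.11.15. The scripts for limma and edgeR were first tested on simulated data with known changes. Replicate numbers were not taken to pair the libraries, as their correlations were mixed. The members and lists were chosen with earlier results of these data known. The genes named beside the members were 6 chosen pathway genes (others on that list are not reported here), the 8 further ones with the largest change among unadjusted p under 0.05 and separate groups, *Stra8* and *Rec8* with up to 4 others by the same rule, and the 3 most like each member. *Mnd1-ps* and *Mlx* were named for shared reads, and *Tex11* for its fold change, after their values were seen. The labels and the methods name different versions of the Cufflinks tools.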

Additional observations from a re-analysis of the deposited data

How the results depend on the processing

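Of 351 values under an alternative, 286 kept their direction and their side of the threshold (or, for counts, stayed within 1.5 times). In FPKM, 1 gene was called, against 4 with no filter, 3 with quantile normalization, 0 with a replicate block, and 1 to 720 when leaving out each library, 720 without the library labelled wild-type replicate 3. Members called went from 0 to 0 or 1 when leaving out each library, the 1 being *Hsf2bp* without that library, and stayed at 0 otherwise. In repeat reads, 1 gene was called, against 56 with DESeq2, 47 with no filter, 28 with loci overlapping no exon, 0 with the replicate block, and 0 to 138 without each library (138 without the library labelled wild-type replicate 3 and 21 without wild-type replicate 2), and no member under any of these. *Psmc3ip* turned to 0.0039 with centring on the median, 0.0085 with quantile normalization and 0.0064 with array weights, and ranged from -0.084 to 0.044 without each library. *Mei1* ranged from -0.028 to 0.028. In repeat reads, *Mnd1* turned to -0.0090 with the replicate block and ranged from -0.16 to 0.18 without each library, *Dmc1* from -0.42 to 0.084 and *Spo11* from -0.92 to 0.0011. The cause was not tested. The same-number libraries had correlations of 0.20, -0.18 and 0.23 in their deviations. Wild-type replicates 1 and 3 correlated best with the mutant of the same number, but wild-type replicate 2 with mutant replicate 1. The numbers were not taken as pairing. Leaving out 1 library raises the smallest permutation p to 0.0667 (wild type) or 0.1 (mutant), so *Prdm9* and *Psmc3ip* relative to germ cell genes could not keep 0.0286. Relative to germ cell genes, *Mnd1* reached 0.0286 with list genes of at least 2 FPKM and with a pseudocount of 1, and *Msh5* with a pseudocount of 1 (exact permutation tests). Levels near 0.05 FPKM, as for *Mei1*, rest on few fragments, so a difference was not detectable there.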
